A study of Mus musculus with 2 samples.

Results

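The elastic fibre and lysyl oxidase crosslinking genes were followed as 10 members, chosen by gene symbol: Eln, Fbn1, Fbn2, Mfap5, Efemp1, Efemp2, Fbln5, Lox, Loxl1 and Ltbp4. All 10 were found, each as a single row, among the 38926 gene symbols listed for each library. The tissue was the pleuroperitoneal folds, the paired embryonic folds that give rise to diaphragm connective tissue, from wild type mouse embryos at embryonic day 12.5 on a mixed 129s/SvlmJ-C57/BL6J background. The series had 1 group of 2 libraries, replicates 1 and 2, each made from polyadenylated RNA of 2 pooled pairs of folds and holding 26370253 and 23255957 counts. No treatment, mutant or other stage was there to compare with, so levels are descriptions of this tissue and the only test compares the libraries with each other.

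Elastic fibres are built of a core of crosslinked elastin laid on a scaffold of fibrillin microfibrils. Fibulins bring soluble elastin and the lysyl oxidases to that scaffold, and the lysyl oxidases, copper enzymes, oxidise lysines so that elastin and collagen chains become covalently crosslinked. Mice without Lox can die at birth with a ruptured diaphragm, and human mutations in EFEMP2 and LTBP4 cause cutis laxa syndromes in which diaphragmatic hernia occurs.

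Promoters are shown for the 3 fibulin genes of the set. The proportions among these genes, as given with their levels and limits, differed between the libraries beyond counting error. That of Lox to Loxl1 did so too, and a link to the promoters was not tested. Each line gives the 100 bases next to the most upstream RefSeq start site (GRCm38.p6), 5′ to 3′ on the gene's strand, with capitals at the letters GGGCGG on either strand, the core of a GC box.
Efemp1: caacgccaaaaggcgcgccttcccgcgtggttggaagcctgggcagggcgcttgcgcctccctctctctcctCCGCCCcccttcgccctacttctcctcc
Efemp2: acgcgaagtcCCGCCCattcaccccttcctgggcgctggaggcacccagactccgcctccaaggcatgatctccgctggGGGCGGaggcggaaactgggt
Fbln5: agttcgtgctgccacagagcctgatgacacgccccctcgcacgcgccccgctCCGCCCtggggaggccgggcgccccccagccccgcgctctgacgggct

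The windows lie at chr11:28853104-28853203 on the plus strand for Efemp1, chr19:5473846-5473945 on the plus strand for Efemp2 and chr12:101819120-101819219 on the minus strand for Fbln5, and none overlaps a GENCODE M21 exon. GGGCGG was found at 1 position in Efemp1, 2 in Efemp2 and 1 in Fbln5, and 24.7% of the 32851 promoter windows of this length held it. Neither TATAAA nor CCAAT, searched on both strands, occurred in these windows, against 5.56% and 18.9% of all windows. Their GC content was 69.0%, 68.0% and 77.0%, against 55.6% over all windows. These matches describe letters and not binding.

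All 10 genes reached 1 TPM, a count divided by gene length and expressed relative to a fixed total of such values per library, in both libraries, a level that 63.0% of the 20719 protein-coding symbols reached. At 10 TPM in both libraries there were 9 of 10, against 46.0%. The median level of the members was 107 TPM in replicate 1 and 112 TPM in replicate 2. For the 13053 protein-coding genes expressed at 1 TPM in both libraries, the medians were 26.6 and 27.1 TPM. Together the members took 0.240% and 0.241% of the counts. In bulk tissue, a difference in the number of cells that express a gene and in the RNA per cell cannot be told apart.

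The fibrillin genes, which encode the rods of the microfibril, were unequal. Fbn2, the fibrillin gene best known for its embryonic expression, was the highest member in both libraries, with 24610 counts (277 TPM) in replicate 1 and 22724 counts (298 TPM) in replicate 2, a mean of 288 ± 15.2 TPM (SD, n = 2, as for all means here). Fbn1, mutated in Marfan syndrome, had 10759 counts (105 TPM) and 10055 counts (114 TPM). The ratio of Fbn2 to Fbn1 in TPM was 2.65 in replicate 1 (95% binomial interval 2.59 to 2.71) and 2.62 in replicate 2 (2.55 to 2.68), so the libraries gave the same proportion within counting error. Fbn2 thus held 72.6% and 72.3% of the fibrillin TPM. Expressed protein-coding genes with a lower mean made up 97.1% for Fbn2 and 88.4% for Fbn1.

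Mfap5, which encodes the small microfibril-associated glycoprotein MAGP-2, was by far the lowest member. It had 73 counts (2.397 TPM, 95% Poisson interval 1.88 to 3.01) in replicate 1 and 43 counts (1.65 TPM, 1.19 to 2.22) in replicate 2. Only 4.89% of expressed protein-coding genes had a lower mean. The highest mean among the members, that of Fbn2, was 142 times that of Mfap5 and 4.72 times that of Efemp1, the next lowest, so 9 of the 10 levels lay within 4.72-fold of each other. The distance to Mfap5 depended on the gene length: it was 93.6-fold by the longest annotated transcript of each gene and 56.6-fold by the longest protein-coding transcript.

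Elastin itself was transcribed at this stage. Eln had 2550 counts (116 TPM) in replicate 1 and 2334 counts (124 TPM) in replicate 2, a mean of 120.3 ± 5.62 TPM. Its TPM stood at 1.11 times that of Fbn1 in replicate 1 (1.07 to 1.16) and 1.09 times in replicate 2 (1.04 to 1.14). The direction of that comparison depended on the gene length, as given below.

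Among the fibulin genes, Efemp2 (fibulin-4), which brings lysyl oxidase to elastin and without which mice form no elastic fibres, was highest with 2974 counts (132 TPM) and 2415 counts (125 TPM). Fbln5 (fibulin-5), which binds elastin and cell-surface integrins, had 4931 counts (99.7 TPM) in replicate 1 and 3292 counts (77.7 TPM) in replicate 2. Efemp1 (fibulin-3) had 1002 counts (58.0 TPM) and 945 counts (63.8 TPM). The order Efemp2, Fbln5, Efemp1 held in both libraries, but the proportions differed beyond counting error. Efemp2 stood at 2.28 times Efemp1 in replicate 1 (2.125 to 2.455) and 1.97 times in replicate 2 (1.823 to 2.122). Fbln5 stood at 1.72 times Efemp1 in replicate 1 (1.61 to 1.84) and 1.22 times in replicate 2 (1.13 to 1.31), and Efemp2 at 1.33 times Fbln5 (1.27 to 1.39) and 1.61 times (1.53 to 1.70). In each of these 3 ratios the intervals of the libraries did not overlap. The intervals hold counting error only, and the 3 ratios share their genes, so they are not separate results. The share of other gene pairs that differ in this way was not tested. Of the 8685 single genes with at least 1000 counts, 30.0% differed between the libraries by the exact binomial test described below.

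Lox, the founding lysyl oxidase gene, was the second highest member, with 7435 counts (182 TPM) in replicate 1 and 6603 counts (189 TPM) in replicate 2. Loxl1, whose product acts mainly on elastin, had 3047 counts (108 TPM) and 2448 counts (101 TPM). Lox stood at 1.69 times Loxl1 in replicate 1 (1.62 to 1.77) and 1.87 times in replicate 2 (1.79 to 1.96). Here too the intervals of the libraries did not overlap, with the same limit of counting error only and no share of other gene pairs. Over the 5 lysyl oxidase genes, Lox held 48.5% and 50.5% of the summed TPM and Loxl1 28.6% and 27.0%. Of the rest of the family, Loxl3 stood at 43.1 and 42.7 TPM, Loxl2 at 42.0 and 40.8 TPM and Loxl4 at 0.979 and 0.555 TPM.

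**Figure D1:**
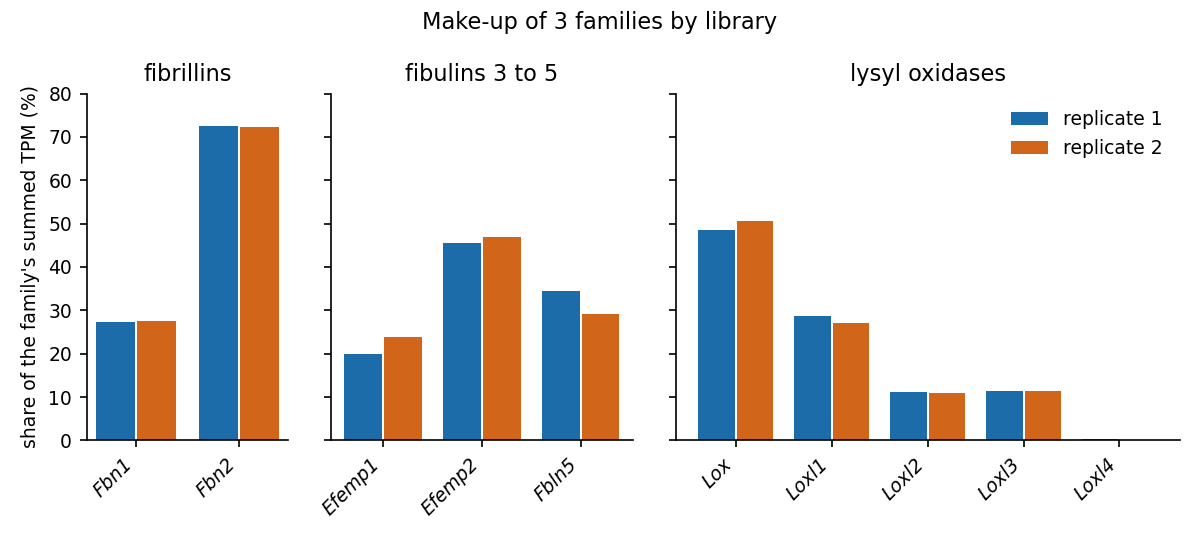
Bars give each gene's share, in percent, of its family's summed TPM in replicate 1 (blue) and replicate 2 (orange), for 2 fibrillin, 3 fibulin and 5 lysyl oxidase genes. Fbn2 held 72.6% and 72.3% of the fibrillin TPM, while the share of Fbln5 in its family was 34.4% in replicate 1 and 29.1% in replicate 2.

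Ltbp4, which encodes a latent TGF-beta binding protein that sits on microfibrils and works with fibulin-5, had 5810 counts (106 TPM) and 5201 counts (111 TPM). Its mean of 108 ± 3.36 TPM put it beside Fbn1 and Loxl1.

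In order of mean level the members ran Fbn2, Lox, Efemp2, Eln, Fbn1, Ltbp4, Loxl1, Fbln5, Efemp1 and Mfap5. Fbn1 and Ltbp4, and Ltbp4 and Loxl1, overlapped between the libraries and changed places. Efemp2 and Eln, Eln and Fbn1, and Loxl1 and Fbln5 did not overlap, but the gaps between them were 1.16, 2.30 and 1.19 TPM. With 2 libraries a gene, the exact two-sided permutation test cannot give a p below 0.333, so no pair of neighbours could pass a threshold of 0.05.

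**Figure D2:**
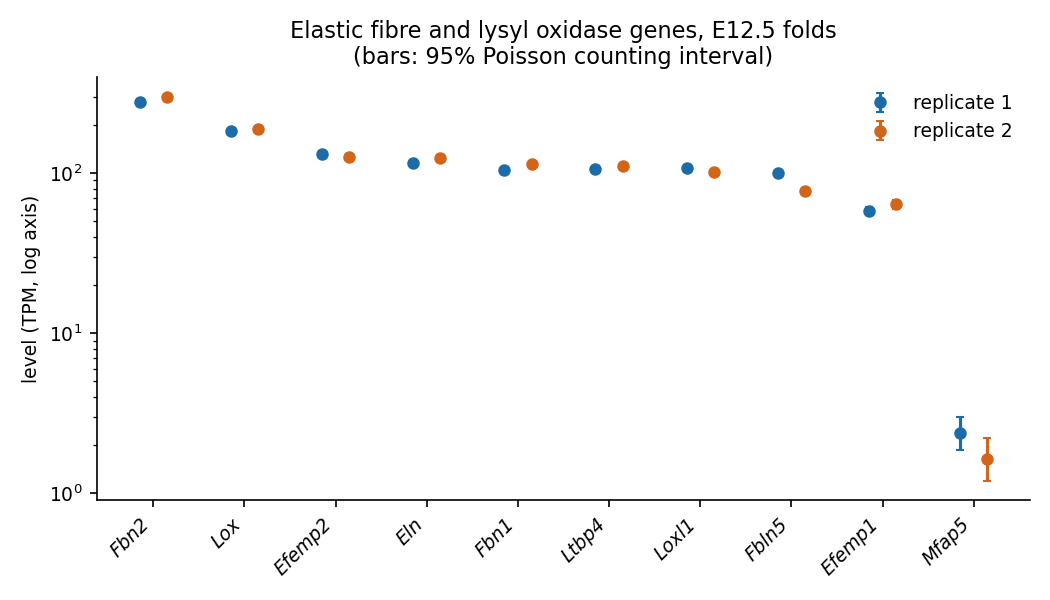
Points give the TPM of each member on a log axis in replicate 1 (blue) and replicate 2 (orange), ordered by mean level, and bars are 95% Poisson intervals of the count. The 9 members from Fbn2 to Efemp1 lie between 58.0 and 298 TPM in both libraries, and Mfap5 lies at 2.397 and 1.65 TPM.

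Levels of different genes also rest on the gene model behind each row. The labels name the build mm9, but of 35656 symbols found in GENCODE M21, an annotation of GRCm38, 77.2% had a span identical to that of one of their transcripts, so positions are given as GRCm38. On that build the deposited rows of 7 members matched the span of a GENCODE transcript and that of Loxl1 the RefSeq gene, while those of Eln and Fbn2 matched neither. The rows place Eln at chr5:134703781-134747241, Fbn1 at chr2:125300594-125506385, Fbn2 at chr18:58008623-58209926, Lox at chr18:52516069-52529867, Loxl1 at chr9:58287723-58313212, Fbln5 at chr12:101746565-101819055 and Ltbp4 at chr7:27305136-27337692, all on the minus strand. Efemp1 lies on the plus strand at chr11:28853204-28926743. The rows of Efemp2 (chr19:5473973-5477578) and Mfap5 (chr6:122505845-122515375), both on the plus strand, match the span of 1 transcript. The annotated genes run on to 5482517 and 122529290. Their deposited lengths, 2648 and 3589 bases, exceed the longest annotated transcripts, 2634 and 2491 bases, so the lengths are not those of 1 transcript.

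The deposited length of Eln, 2583 bases, equals the coding bases of its protein-coding transcript with the stop codon, so it holds no untranslated region, while the longest annotated transcript is 3853 bases long. For Fbn1, Efemp1, Ltbp4 and Mfap5 the length equals all exon bases of the gene joined together (12128, 2037, 6463 and 3589 bases). For Efemp1 that is also the length of its longest annotated transcript. Divided by the longest annotated transcript of each gene instead, the mean of Eln was 73.0 TPM and that of Fbn1 100.2 TPM, which turned their order around. Whether reads from the untranslated regions of Eln were counted was not tested. If they were not, its count and this longer length cover different bases, which lowers its level. Mfap5 was again lowest, at 2.64 TPM, or at 4.13 TPM by the longest protein-coding transcript. Fbn2 and Lox ranked first and second under each of these lengths.

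A neighbour on the opposite strand touches Fbn1. Gm9913 shares 2442 of the exon bases of Fbn1, or 20.1%. Over its 2793 bases it had 136 counts in replicate 1 and 101 in replicate 2, which is 0.0487 and 0.0362 counts per base, against 0.887 and 0.829 for Fbn1. Whether reads of Fbn1 from the shared bases were counted was not tested. Without those bases its level was 131 TPM in replicate 1 and 143 TPM in replicate 2, and its mean, 137 TPM, was above those of Eln and Efemp2, although in replicate 1 it was below Efemp2. Eln, Fbn2, Efemp2 and Lox share smaller parts, from 0.628% to 4.57% of their exon bases, with other genes, and the remaining 5 members share none.

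**Figure D3:**
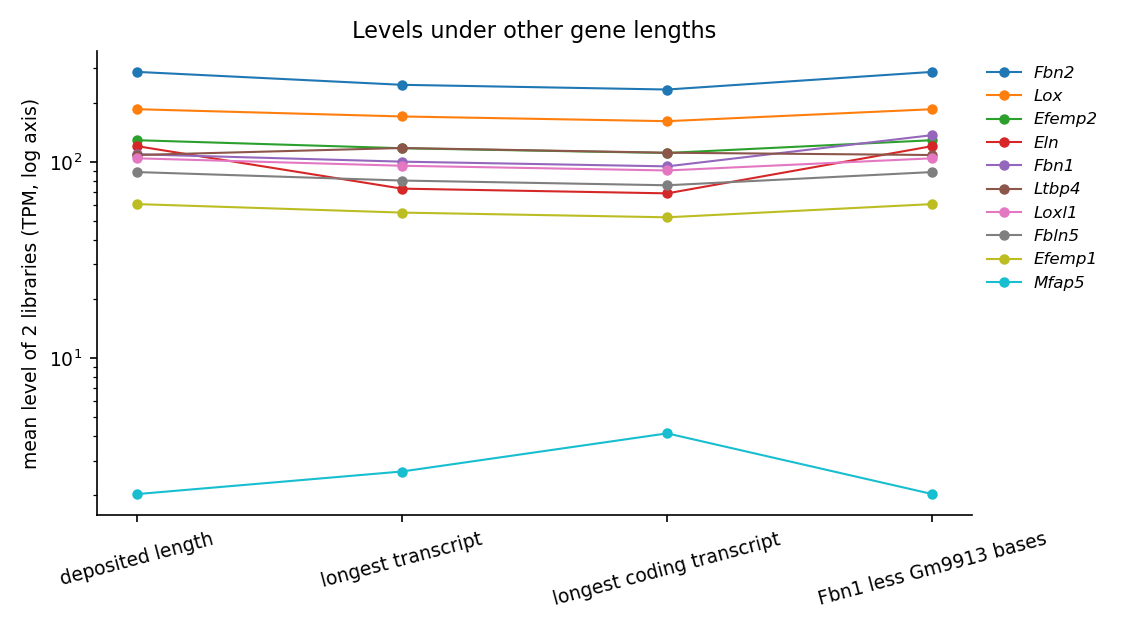
Points give each member's mean TPM of 2 libraries on a log axis with the deposited gene length, the longest GENCODE transcript, the longest protein-coding transcript, and the deposited length of Fbn1 less the bases shared with Gm9913, joined by lines per gene. Eln falls from 120.3 TPM to 73.0 and 69.1 TPM under the transcript lengths, while Fbn2 and Lox are highest in each column.

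Between the libraries, 5 of the 10 members differed beyond counting error, 2 higher and 3 lower in replicate 2, at an adjusted p under 0.05 in an exact binomial test of the counts over 19433 genes. None differed by 2-fold. Of all genes tested, 17.5% passed the same threshold (8.85% higher and 8.65% lower in replicate 2), and 1.26% also differed by 2-fold. Power rises with the count: 9 of the members had at least 1000 counts, and of the 8685 genes with that many 30.0% passed (14.7% higher and 15.3% lower in replicate 2). The median log2 ratio of the members was 0.019, against -0.014 for all genes tested.

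The member with the largest called difference was Fbln5, with a log2 ratio of replicate 2 to replicate 1 of -0.40 (95% interval -0.46 to -0.33, exact binomial adjusted p = 1.06e-32), or 1.32-fold higher in replicate 1. Of the genes with at least 1000 counts, 0.691% had a lower ratio. Loxl1 was also lower in replicate 2, at -0.13 (-0.21 to -0.054, exact binomial adjusted p = 0.00740), as was Efemp2, at -0.12 (-0.19 to -0.038, exact binomial adjusted p = 0.0234).

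The fibrillin genes went the other way by small amounts. Fbn1 was higher in replicate 2 with a log2 ratio of 0.087 (0.047 to 0.13, exact binomial adjusted p = 0.000239) and Fbn2 with 0.069 (0.043 to 0.095, exact binomial adjusted p = 4.34e-06). Eln at 0.057, Efemp1 at 0.10, Lox at 0.013, Ltbp4 at 0.025 and Mfap5 at -0.57 did not pass the threshold. The interval of Mfap5, -1.16 to -0.016, was the widest because of its few counts.

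**Figure D4:**
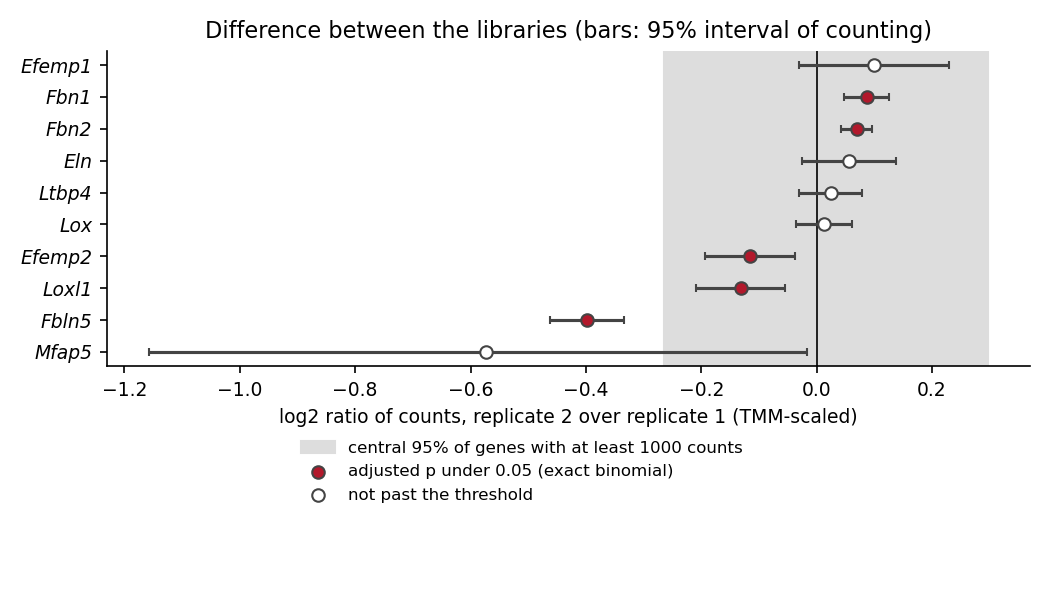
Points give the log2 ratio of replicate 2 to replicate 1 for each member with its 95% interval, filled where the exact binomial adjusted p was under 0.05, and the grey band holds the central 95% of ratios of genes with at least 1000 counts, -0.27 to 0.30. Fbln5 lies outside the band at -0.40, as does Mfap5 at -0.57 with a wide interval, and the other 8 members lie inside it.

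The binomial test allows for counting error alone. With a common dispersion estimated by edgeR from these libraries, its exact test called 0 of the 10 members and 0.751% of all genes tested. Among the members Fbln5 had the lowest p (edgeR exact test p = 0.0169, adjusted p = 0.591). The dispersion was estimated from both libraries taken as a single group, so it holds the difference under test. By design this leaves few calls, and it cannot decide whether a member differs.

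Markers of other tissues moved between the libraries too. By the exact binomial test the 5 fetal liver markers were all called higher in replicate 2 (summed level 99.5 TPM in replicate 1 and 266 TPM in replicate 2). Of 5 urogenital markers 4 were called lower (summed level 32.9 and 13.4 TPM), and Pax2, with 13 and 2 counts, was not called. Of all genes tested, 8.85% were called higher and 8.65% lower in replicate 2. Of the 5 cartilage and tendon markers, the tendon regulator Scx was lower (149 and 115 TPM), and the cartilage genes Sox9 (25.1 and 37.2 TPM) and Col2a1 (16.8 and 21.6 TPM) were higher. Other lists held calls in replicate 2 as well: 3 of 6 endothelial markers were higher and 1 lower, and 2 of 5 mesothelial markers were higher. Of 5 skeletal muscle markers 2 were higher and 1 lower, and the 2 tested heart muscle markers were higher. Of 7 smooth muscle markers 1 was lower, and of 7 fold mesenchyme genes 1 was higher and 2 lower. None of the 3 macrophage markers was called. The part of any of these tissues in the lower level of Fbln5 was not tested. As for the labelled tissue, all 7 fold mesenchyme genes were at 10 TPM or more in both libraries, against 46.0% of protein-coding symbols. Among them were Wt1 (91.6 and 89.8 TPM) and Gata4 (173 and 178 TPM). Of the 5 lung and gut epithelial markers, Nkx2-1, Shh and Cdx2 had 0 counts in both libraries, Sftpc had 0 and 1, and Sox2 had 30 and 21 (1.44 and 1.18 TPM).

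Cells other than fibroblasts can make elastic fibre proteins. Of 7 smooth muscle markers 6 were expressed at 1 TPM in both libraries, against 63.0% of protein-coding symbols. Acta2 stood at 880 and 889 TPM, Tagln at 233 and 207, Des at 140 and 138 and Smtn at 70.4 and 71.5 TPM. Cnn1 was at 7.66 and 8.31 TPM and Myh11, a marker of mature smooth muscle, at 2.31 and 2.72 TPM. The regulator Myocd was at 0.532 and 0.878 TPM. The summed levels were 203 and 237 TPM for 6 endothelial, 342 and 379 TPM for 5 mesothelial, 1396 and 1432 TPM for 5 skeletal muscle, 78.5 and 105 TPM for 4 heart muscle, 199 and 180 TPM for 5 cartilage and tendon, and 244 and 228 TPM for 3 macrophage markers. The heart muscle sum was mostly Myl7 (69.9 and 94.2 TPM), while Nkx2-5 had 1 and 3 counts. Scx made up most of the cartilage and tendon sum (149 and 115 TPM). Which of the cell types named here held the transcripts of the members was not tested.

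The rest of the elastic fibre pathway was described with 53 further genes in 9 roles. Of these, 49 were expressed at 1 TPM in both libraries, against 63.0% of protein-coding symbols, and the median of their means was 42.9 TPM. Between the libraries 11 were higher and 13 lower in replicate 2 among the 51 with enough counts, by the exact binomial test, where 8.85% of all genes tested were higher and 8.65% lower (14.7% and 15.3% of those with at least 1000 counts). The counts by role below are a few genes each, are set beside the same shares, and are read as descriptions. The edgeR exact test with a common dispersion called 0 of the pathway genes, against 0.751% of all genes, with the limit given for the members.

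The other microfibril-associated genes included the highest in this role, Mfap2 and Mfap4. Mfap2, the gene of the glycoprotein MAGP-1, was at 778 and 743 TPM and Mfap4 at 602 and 570 TPM, whereas the lowest of the 5 in this role, Emilin2, was at 18.8 and 17.2 TPM. Mfap2 thus stood far above its relative Mfap5 in both libraries. In this role 3 of 5 were lower in replicate 2 (8.65% of all genes tested) and none higher, Mfap2 at a log2 ratio of -0.11 and Mfap4 at -0.12.

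The other fibulins and hemicentins ranged widely: Fbln2 stood at 187 and 208 TPM, Fbln1 at 148 and 144 TPM, and Hmcn2 at 0.447 and 0.924 TPM. Hmcn2, with 61 and 108 counts, was the only pathway gene tested that passed both the threshold and 2-fold, at a log2 ratio of 1.00 (exact binomial adjusted p = 0.000158). Of these 5 genes 3 were higher and 1 lower in replicate 2 (8.85% and 8.65% of all genes tested).

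Among the latent TGF-beta binding proteins, Ltbp1 stood at 133 and 120 TPM and Ltbp3 at 110 and 117 TPM, both above the member Ltbp4 in each library, while Ltbp2, with 97 and 85 counts, stood at 1.40 and 1.43 TPM. The TGF-beta ligand genes in this role were led by Tgfb3 (261 and 247 TPM) and Tgfb2 (243 and 231 TPM). In this role 3 of 6 genes were lower in replicate 2 (8.65% of all genes tested) and none higher. Adamts10, linked like Fbn1 to Weill-Marchesani syndrome, led the Adamts genes that act on microfibrils, at 120.4 and 122 TPM. The next by mean was Adamts17, at 15.7 and 18.4 TPM, with Thsd4 above it in replicate 1 (16.5 TPM) and Adamts6 in replicate 2 (19.4 TPM), and Adamtsl5 was lowest at 1.12 and 1.66 TPM. All 7 genes of that role were expressed (63.0% of protein-coding symbols were), with 2 higher in replicate 2 (8.85% of all genes tested) and none lower.

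Genes that prepare lysyl oxidase were present. Bmp1, the protease that cuts its propeptide, stood at 238 and 229 TPM, while the related Tll2 was at 1.34 and 1.36 TPM. The matrix proteins fibronectin and periostin, which help to place lysyl oxidase and its activating protease, were highly expressed, with Fn1 at 877 and 1007 TPM and Postn at 346 and 362 TPM. Of the 9 genes in this role 3 were higher and 3 lower in replicate 2 (8.85% and 8.65% of all genes tested). Fn1 was among the higher ones at a log2 ratio of 0.16.

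Integrin genes were led by Itgb1 at 521 and 548 TPM and Itga5 at 154 and 155 TPM, and Itgb3 was lowest at 4.15 and 5.53 TPM. All 8 were expressed (63.0% of protein-coding symbols were), with 3 higher in replicate 2 (8.85% of all genes tested) and none lower. Fkbp10, whose product is a chaperone of elastin and collagen, stood at 293 and 282 TPM. In the complex that includes an elastin receptor, Ctsa was at 74.6 and 71.5 TPM and Neu1 at 17.6 and 17.4 TPM. Of these 4 genes, Fkbp10 alone was called, lower in replicate 2 at -0.098 (8.65% of all genes tested were lower).

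Of 6 genes for proteases that can cut elastin, 4 were expressed, near the 63.0% of protein-coding symbols that were. The gelatinase gene Mmp2 stood at 545 and 557 TPM and the cathepsin gene Ctsk at 102 and 81.9 TPM, whereas macrophage elastase, Mmp12, had 1 count in replicate 1 and 0 in replicate 2. Ctsk was lower in replicate 2 at a log2 ratio of -0.36. Of the 4 tested proteases 2 were lower (8.65% of all genes tested) and none higher.

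**Figure D5:**
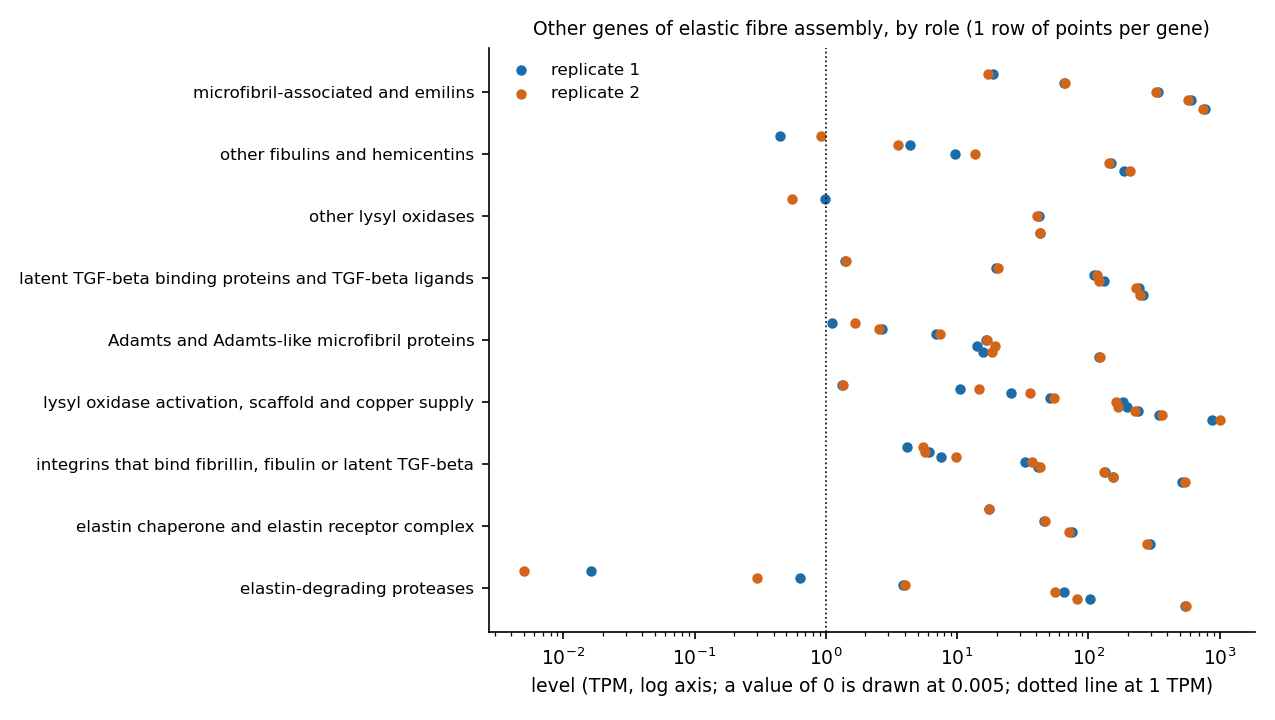
Each row of points is 1 of 53 pathway genes, grouped by 9 roles, with its TPM on a log axis in replicate 1 (blue) and replicate 2 (orange); a value of 0 is drawn at 0.005. Points of 49 genes lie at or right of the dotted line at 1 TPM in both libraries, and the libraries lie close together for most genes.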

How the data were processed

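STAR 2.4.0a, SAMtools 1.3, featureCounts and the build mm9 are named per the submitters' processing notes; the annotation and the strand setting are not given in the sources used here. The deposited count is a raw whole-number count per gene symbol, and the deposited TPM equals count over deposited length, scaled per library (largest difference 4.73e-11). Counts limit precision: 3 counts correspond to 0.114 and 0.129 CPM in replicates 1 and 2. Intervals cover counting error only, since reads that carry no molecular identifier may be copies of 1 molecule, and p-values do not measure the spread between animals.

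Library ratios used counts plus 0.5 and TMM factors from edgeR 4.0.16. They were tested with SciPy 1.17.1 by the binomial test, exact and two-sided, with Benjamini-Hochberg adjustment over genes with at least 10 counts in both libraries together. With 1 group there was no residual replication for a quasi-likelihood fit. The test was tested on simulated data. Alternatives were total counts, DESeq2 1.42.0 size factors, no filter, the edgeR exact test, other lengths, other TPM denominators and each library alone. Protein-coding symbols came from GENCODE M21 and RefSeq, and all promoter sequences from RefSeq (GRCm38.p6), which held 5 of the 10 members.

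The members, the 9 pathway roles and the 11 marker lists (57 of 58 genes found) were chosen with earlier results of these data known. Named were all members, the 2 highest and the lowest gene of each pathway role and those past 2-fold; Ltbp1, Ltbp3, Bmp1, Thsd4, Adamts6, the marker genes and Gm9913 were named after their values were seen.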

Additional observations from a re-analysis of the deposited data

How the results depend on the processing

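Alternatives to the gene length and the TPM denominator moved levels. Under a noise model with dispersion no member or pathway gene was called, but that dispersion holds the difference under test. The median member level, 109.6 TPM over the libraries, was 122 TPM without features under 200 bp, 135 TPM over protein-coding symbols, 97.9 TPM by the longest transcript, and, by alternatives chosen after seeing the data, 92.6 TPM by the longest protein-coding transcript and 115 TPM with Fbn1 shortened by the Gm9913 bases. The ratio of Fbn2 to Fbn1 was 2.47 by either transcript length and 2.10 with Fbn1 shortened, against 2.63. The ratio of Eln to Fbn1, 1.10, turned to 0.729 by either transcript length and to 0.880 with Fbn1 shortened; these follow from the lengths alone. Lox held 51.7% of its family by either transcript length, against 49.5%. With the edgeR exact test and a common dispersion, 0 members (0 higher, 0 lower) and 0 pathway genes (0 higher, 0 lower) were called, against 5 and 24. Total counts, DESeq2 size factors, no filter and, chosen after seeing the data, library sizes without 2-fold genes kept all member ratios on the same side of the threshold. Each library alone gave levels and ratios within an SD of the mean, which 2 libraries always do, and leaves no comparison of libraries. The Mfap5 level rests on 73 and 43 counts. No paired analysis was possible because the series has a single group.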
